A study of Mus musculus with 4 samples.

Results

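St18 encodes a zinc-finger transcription factor of the MYT family, and it was followed here in single cells of lung and synovium from mice with and without a human TNF transgene. It is 1 of the 32285 genes listed in the count matrices. It was chosen on these same data, because its counts were higher in myeloid cells of both tissues when the transgene was present. Its levels by genotype and by cell group are therefore given as a description, with no test. TNF+ mice carried the human TNF transgene (hTNFtg) and TNF- mice were their littermates without it. All mice were female, on a C57BL/6 background and 4 months old. Lungs of 3 to 5 mice and synovia of 5 to 10 mice were pooled per genotype before capture, and dead cells were sorted out beforehand. This gave 4 libraries, 1 per genotype and tissue, without replicates. The transgene is not in the mouse reference, so its own expression was not measured.

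MYT family proteins bind DNA through CCHC-type zinc fingers and are best known from developing neurons, oligodendrocyte precursors and endocrine pancreas. They act largely as repressors, through partners such as the SIN3 scaffold and histone deacetylases. Macrophages of lung and synovium include long-lived resident cells, many of which make the complement component C1q, and cells derived from circulating monocytes. In an arthritic joint, cells of the monocyte lineage also form osteoclasts, which resorb bone.

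The St18 gene (ENSMUSG00000033740) lies on chromosome 1 at 6487231 to 6860940 of GRCm38, on the plus strand, and is protein coding in the GENCODE vM21 annotation. It spans 373710 bases, and no annotated gene overlaps it. The counting included intronic reads, so a unique molecular identifier (UMI, the tag by which a captured transcript is counted once) may stem from an exon or from an intron, and these cannot be told apart here. Levels are in CPM, the St18 UMIs per 1000000 UMIs of the same cells. Brackets give exact 95% intervals, Poisson for CPM, Clopper-Pearson for shares and conditional binomial for log2 ratios. All of them cover counting error only, not differences between mice. Those of CPM, of shares of UMIs and of log2 ratios also leave out the uneven spread of UMIs between cells.

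After the study's cell filter (200 to 5000 genes, at most 20% mitochondrial UMIs) 3152 to 9174 cells per library remained, with a median of 7137 to 12492 UMIs per cell. Any pair of libraries shared 5 to 21 barcodes, at most 0.304% of the smaller library. Clusters were called "like" a cell type from marker lists, and St18 took no part in the clustering. The macrophage or monocyte class had 18 to 20 of its 20 markers at least 2-fold above the other cells in every library. Many myeloid subclusters came almost wholly from 1 genotype, so genotype and cell state cannot be told apart in them.

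St18 was sparse in TNF- tissue and higher in both TNF+ tissues. The TNF- lung held 189 St18 UMIs in 34 of 6998 cells, 3.51 CPM [3.03 to 4.05]. The TNF+ lung held 2314 UMIs in 357 of 9174 cells, 27.4 CPM [26.3 to 28.6]. The difference was 2.96 on the log2 scale [2.75 to 3.19], or 7.80-fold. In the TNF- synovium 115 UMIs fell in 52 of 6200 cells, 1.51 CPM [1.25 to 1.81]. The TNF+ synovium had 1632 UMIs in 452 of 3152 cells, 49.4 CPM [47.0 to 51.8]. That log2 ratio was 5.03 [4.76 to 5.32], 32.7-fold.

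The upper limit of 5000 genes bears on the lung values. It and the mitochondrial limit together removed 71.3% of all St18 UMIs of the TNF+ lung and 35.7% of those of the TNF- lung. In the synovium 27.6% were lost with and 19.6% without the transgene. With the limit raised to 8000 genes, the whole-lung log2 ratio was 4.02, 16.3-fold, and that of the synovium was 4.93, 30.4-fold. Fewer macrophages and less St18 RNA per macrophage cannot be told apart in such whole-tissue sums, so the cell groups were examined separately.

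Macrophages or monocytes held most St18 UMIs in 3 of the 4 libraries. In the lung their share was 83.6% [77.5 to 88.6] without and 94.2% [93.1 to 95.1] with the transgene, and in the synovium 14.8% [8.85 to 22.6] and 97.7% [96.9 to 98.4]. With the limit at 8000 genes the shares were 70.4%, 94.9%, 20.9% and 72.9% in the same order, and in the TNF+ synovium 397 UMIs then lay in unnamed clusters and 167 in dendritic-like cells.

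In synovial macrophages or monocytes, St18 was at 5.92 CPM [3.45 to 9.47] without the transgene, from 17 UMIs in 5 of 222 cells. With it, the level was 105 CPM [99.9 to 110], from 1595 UMIs in 422 of 1110 cells. Different subclusters held most of this class, the nonclassical monocyte-like subcluster 5 (36.0%) and the C1q macrophage-like subcluster 3 (28.4%) without the transgene and the Trem2 macrophage-like subcluster 0 (58.0%) with it. The log2 ratio of 4.15 [3.47 to 4.93], 17.7-fold, placed St18 at rank 50 of the 11815 genes with at least 20 UMIs. Of those genes, 9.21% were at least 2-fold higher and 19.3% at least 2-fold lower in TNF+ cells, and since St18 was picked on this contrast nothing is read from its rank. In lung macrophages or monocytes the level was 23.0 CPM [19.6 to 26.9], from 158 UMIs in 23 of 628 TNF- cells, against 52.4 CPM [50.2 to 54.7], from 2179 UMIs in 290 of 4412 TNF+ cells. The log2 ratio was 1.19 [0.95 to 1.43], 2.28-fold, rank 576 of 14753 genes, of which 4.97% were at least 2-fold higher and 14.1% at least 2-fold lower. With the limit at 8000 genes it was 1.74, from 27.1 to 90.8 CPM, and with each library clustered by itself it was 2.92.

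The lung class differed in its makeup between the genotypes. Nonclassical monocyte-like cells of subcluster 0 made up 57.7% of the TNF+ class and 2.87% of the TNF- class, and they held almost no St18. Alveolar macrophage-like cells of subcluster 9 went from 16.4% to 1.63% of the class. The ratio over the whole lung class mixes these shares with the level per cell.

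**Figure D1:**
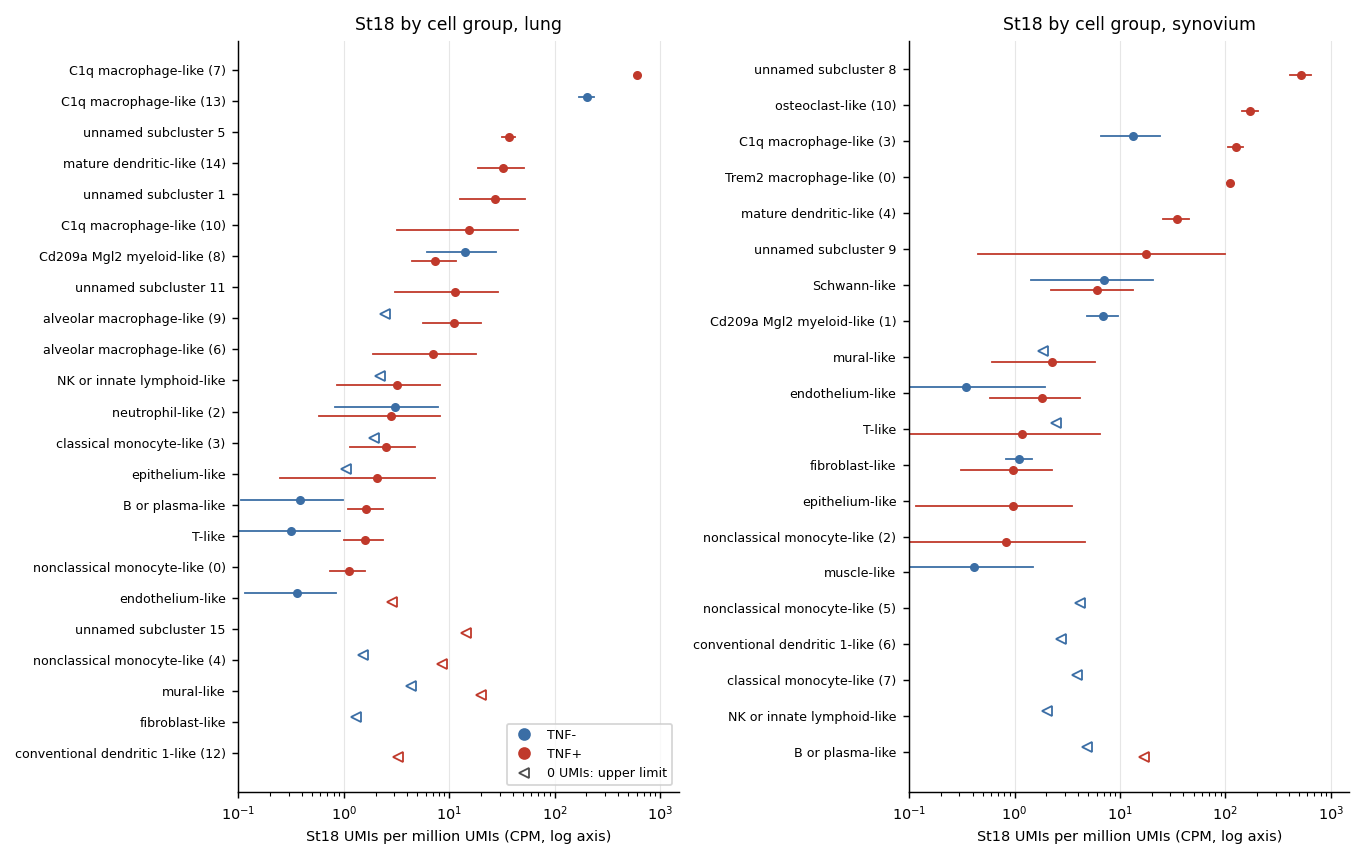
St18 level (CPM, log axis) in each cell group of at least 30 cells, by tissue, with TNF- libraries in blue and TNF+ libraries in red. Points are levels of 1 library, bars are exact Poisson 95% intervals for counting error, and open triangles mark the upper interval bound of groups with 0 UMIs. The TNF+ lung C1q macrophage-like cells of subcluster 7 stand at 607 CPM, while most lymphoid and stromal groups lie below 10 CPM.

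In the lung, St18 was concentrated in C1q macrophage-like cells of both genotypes. These cells express C1qa, C1qb and C1qc, the chains of the C1q molecule that starts the classical complement pathway. In the TNF- lung, subcluster 13 held 157 UMIs in 22 of 60 cells, 202 CPM [171 to 236]. Its leading genes included Cd163 and Lyve1, which are known from resident interstitial macrophages. In the TNF+ lung, subcluster 7 held 1906 UMIs in 200 of 231 cells, 607 CPM [580 to 635]. It had 9 of the 14 markers of C1q macrophages, though none of them among its 10 leading genes, which were headed by Colq and St18 itself. Both values lie far above every other myeloid group of at least 30 cells in their library.

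Under the study's cell filter, the C1q macrophage-like cells of the genotypes lay mostly in different subclusters. Subcluster 7 held 3 TNF- cells and subcluster 13 held 2 TNF+ cells. Cd163, a scavenger receptor for haemoglobin, was at 191 CPM in subcluster 13 of the TNF- lung and at 9.87 CPM in subcluster 7 of the TNF+ lung, and C1qa was at 4471 and 6952 CPM. Over all C1q macrophage-like cells of the lung, 70 without and 347 with the transgene, St18 was at 197 and 570 CPM, a log2 ratio of 1.53 [1.30 to 1.78], 2.89-fold. Summed levels of T cell markers (356 against 46.2 CPM) and of B cell markers (1262 against 580 CPM) were also higher in subcluster 7 than in subcluster 13, and their part in the result was not tested. Macrophage or monocyte markers were at 50677 and 29468 CPM.

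This ratio ranged from 1.30 to 1.68 over the alternatives in which at least 30 cells of each genotype took the C1q macrophage-like name. With at least 500 genes and at most 10% mitochondrial UMIs, the genotypes shared a C1q macrophage-like subcluster. It was at 560 CPM [533 to 588] in 198 TNF+ cells and 207 CPM [176 to 241] in 62 TNF- cells. With the limit at 8000 genes, only 10 TNF- cells carried the name and no ratio is given. An unnamed subcluster of both genotypes, subcluster 13 in that setting, then had 154 CPM [131 to 180] in 72 TNF- cells and 1154 CPM [1066 to 1247] in 79 TNF+ cells.

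Per cell, St18 was high in many cells of subcluster 7 rather than in a few. The quartiles were 2, 5 and 11 UMIs per cell, the highest cell had 107, and 31 cells had none. The 10% of cells with the most St18 held 38.4% of the UMIs. In the TNF- subcluster 13 most cells had none, with a highest cell of 30 UMIs. After every cell was thinned to 2000 UMIs, so that depth was equal, 55.0% [48.2 to 61.6] of 222 cells in subcluster 7 had an St18 UMI, against 20% [10.8 to 32.3] of 60 in subcluster 13.

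Other lung myeloid cells had little St18. In the TNF- lung, 0 UMIs were found in 123 classical monocyte-like cells, 297 nonclassical monocyte-like cells and 123 alveolar macrophage-like cells. A count of 0 allows up to 1.59, 1.17 and 1.93 CPM in these. In the TNF+ lung, the 2545 nonclassical monocyte-like cells of subcluster 0 had 29 UMIs in 27 cells, 1.12 CPM [0.75 to 1.6]. Classical monocyte-like cells were at 2.49 CPM [1.14 to 4.72] and alveolar macrophage-like cells at 9.66 CPM [5.41 to 15.9], from 9 of 15 UMIs in a single cell. An unnamed subcluster led by Ly6i and Mmp14 (subcluster 5, 311 TNF+ cells and 1 TNF- cell) was at 36.7 CPM [31.6 to 42.3], with 97.8% of its UMIs in the top 10% of cells. Mature dendritic-like cells, 44 in the TNF+ lung, were at 32.1 CPM [18.7 to 51.5], which overlaps with subcluster 5. A shallow C1q macrophage-like subcluster, 114 TNF+ cells with a median of 1242.5 UMIs, had 3 UMIs in all.

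Raising the limit to 8000 genes brought in further St18 cells in the TNF+ lung. The largest C1q macrophage-like subcluster then numbered 353 cells, with 5009 UMIs and 547 CPM [532 to 563], and 93.8% of them had an St18 UMI. Another C1q macrophage-like subcluster, of 193 cells, was at 105 CPM. A Trem2 macrophage-like subcluster of 177 TNF+ cells was at 153 CPM [144 to 163]. Its 5 TNF- cells were at 197 CPM [135 to 278], from 32 UMIs in 4 cells. Trem2 is a lipid-sensing receptor of macrophages. Both classical monocyte-like subclusters stayed low in that setting, at 2.72 and 1.15 CPM, and the 558 alveolar macrophage-like cells of the larger such subcluster were at 1.61 CPM.

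**Figure D2:**
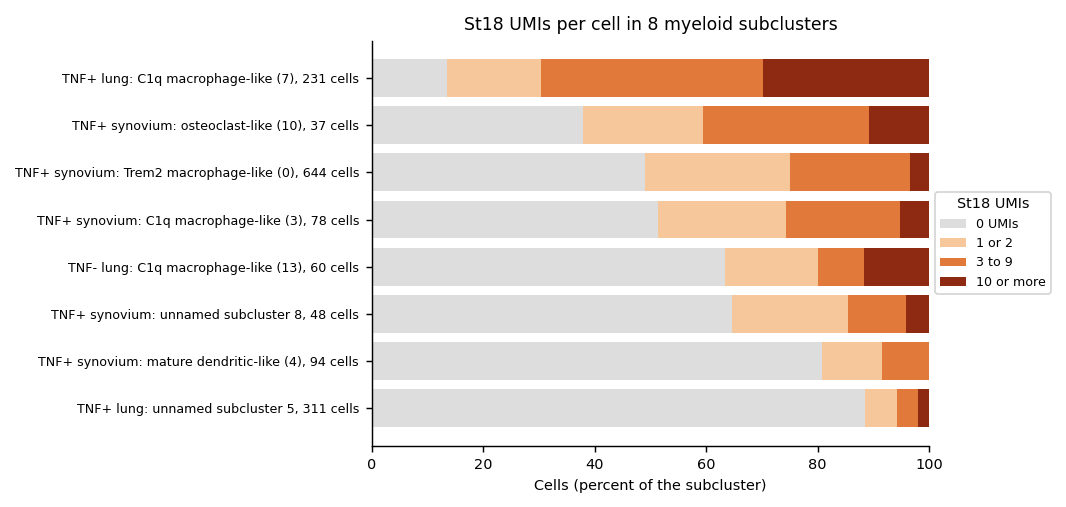
St18 UMIs per cell in the 8 myeloid subclusters shown, as the percent of cells with 0, 1 or 2, 3 to 9 and 10 or more UMIs, without thinning. In subcluster 7 of the TNF+ lung 13.4% of cells had none and 29.9% had 10 or more, while in subcluster 5 of the TNF+ lung 88.4% had none.

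In the TNF+ synovium St18 was spread over several myeloid groups. The largest was a Trem2 macrophage-like subcluster of 644 TNF+ and 4 TNF- cells (subcluster 0), led by Cxcl1, a neutrophil chemoattractant, and Arg1, the arginine-degrading enzyme arginase. Trem2 itself was at 368 CPM in its TNF+ cells, against 505 CPM in C1q macrophage-like subcluster 3 and 676 CPM in unnamed subcluster 9. It was at 13.2 to 301 CPM in the other TNF+ synovial myeloid groups of at least 30 cells. Subcluster 0 had 4 of the 10 markers of Trem2 macrophages and made up 58.0% of the TNF+ class. Its TNF+ cells held 1170 UMIs in 328 cells, 111 CPM [104 to 117], and its 4 TNF- cells had 0 UMIs, which allows up to 57.2 CPM. Osteoclast-like cells, with Ctsk (the collagen-degrading protease cathepsin K) at 4216 CPM and Acp5 (tartrate-resistant acid phosphatase) at 2546 CPM, held 134 UMIs in 23 of 37 TNF+ cells, 171 CPM [143 to 202]. Histone genes and Top2a, which are used in dividing cells, were also among the leading genes of that subcluster, and its 11 TNF- cells had 0 UMIs, which allows up to 13.4 CPM. C1q macrophage-like cells held 160 UMIs in 38 of 78 cells, 125 CPM [107 to 146]. The osteoclast-like and C1q macrophage-like intervals overlap, as do those of the C1q macrophage-like cells and subcluster 0. Those of the osteoclast-like cells and subcluster 0 do not overlap under this filter. All of them leave out the uneven spread of UMIs between cells, and 1 osteoclast-like cell held 25 of the 134 UMIs. Nothing is therefore read from this separation.

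An unnamed subcluster of 48 TNF+ cells (subcluster 8 of the synovium) had the highest level in this tissue, 518 CPM [406 to 651], from 73 UMIs. These cells were shallow, with a median of 1936 UMIs, and had 13.4% mitochondrial UMIs against 1.62 to 2.42% in the other TNF+ synovial myeloid groups of at least 30 cells. Macrophage or monocyte markers were at 4915 CPM in them, against 35966 CPM in subcluster 0. Fibroblast markers were at 1461 CPM, against 646 CPM in subcluster 0, and the stromal protease Mmp3, at 70.9 against 3.78 CPM, was among their leading genes. Their part in the value was not tested. Mature dendritic-like cells of subcluster 4, in which macrophage or monocyte markers stood at 17613 CPM, held 54 UMIs in 18 of 94 cells, 34.4 CPM [25.8 to 44.9]. The 184 nonclassical monocyte-like cells had 1 UMI, and the 29 classical monocyte-like cells had none.

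The borders of these synovial groups moved with the clustering. With a second random seed, the Trem2 macrophage-like subcluster held 565 TNF+ cells at 115 CPM [108 to 122], and a classical monocyte-like subcluster of 154 TNF+ cells appeared at 50.2 CPM [41.2 to 60.6]. The 4 TNF- cells of that Trem2 macrophage-like subcluster were at 63.0 CPM [20.4 to 147], from 5 UMIs in 1 cell. Mature dendritic-like cells then numbered 43, at 11.5 CPM [4.97 to 22.7], and the shallow unnamed subcluster was at 437 CPM [345 to 546] in 55 cells. The osteoclast-like value did not change. With the limit at 8000 genes, the osteoclast-like subcluster had 1 UMI in 27 TNF- cells (1.21 CPM [0.031 to 6.75]) and 159 UMIs in 32 TNF+ cells (125 CPM [106 to 146]). In that setting 593 Trem2 macrophage-like TNF+ cells were at 118 CPM [112 to 125] and 151 classical monocyte-like TNF+ cells at 55.3 CPM. The intervals of the osteoclast-like and the Trem2 macrophage-like TNF+ cells then overlapped. The 7 TNF- cells of that Trem2 macrophage-like subcluster were at 93.5 CPM [46.7 to 167], from 11 UMIs, an interval that overlaps that of the TNF+ cells. With the stricter filter of at least 500 genes and at most 10% mitochondrial UMIs, no Trem2 macrophage-like group was named in the TNF+ synovium. There 361 C1q macrophage-like cells of 1 subcluster held 925 UMIs, 141 CPM [132 to 150], and 362 classical monocyte-like cells held 434 UMIs, 83.1 CPM [75.5 to 91.3]. No shallow unnamed subcluster at a level above these appeared. Since subcluster 8 had a median of 13.4% mitochondrial UMIs, above the limit of that filter, nothing is read from its absence. Whether St18 lay in Trem2, C1q or classical monocyte-like cells of the TNF+ synovium thus rested on the clustering. Nonclassical monocyte-like cells of the largest such subcluster stood at 0.82, 0.81 and 2.42 CPM in the settings of seed, 8000 genes and stricter filter.

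The TNF- synovium offers few matched cells. Its C1q macrophage-like cells, in the same subcluster as the TNF+ cells, had 11 UMIs in 4 of 65 cells, 13.3 CPM [6.63 to 23.8]. The log2 ratio within this group was 3.24 [2.36 to 4.27], 9.44-fold. Thinned to 2000 UMIs, 20% [11.6 to 30.8] of 75 TNF+ and 3.13% [0.38 to 10.8] of 64 TNF- cells had an St18 UMI. The same subcluster differed in its resident genes: the level of Lyve1, a hyaluronan receptor, was 392.5 CPM without and 11.8 CPM with the transgene, while Ctsk went from 0 UMIs to 921 CPM. Cd209a Mgl2 myeloid-like cells held the most St18 UMIs among the TNF- synovial myeloid cells, 37 in 14 of 285 cells, 6.95 CPM [4.89 to 9.58]. Only 20 such cells were found in the TNF+ synovium, at 55.7 CPM [29.7 to 95.3] from 13 UMIs, of which 8 lay in 1 cell, a log2 ratio of 3.00 [1.97 to 3.95]. With the limit at 8000 genes the 48 TNF+ cells of this name were at 8.37 CPM and the 280 TNF- cells at 5.69 CPM. In the lung this group was at 14.2 and 7.37 CPM, a log2 ratio of -0.94 [-2.20 to 0.46], whose interval includes 0. TNF- classical and nonclassical monocyte-like and conventional dendritic 1-like cells of the synovium had 0 UMIs.

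Outside the myeloid cells levels of St18 were low. Fibroblast-like cells nevertheless held the largest share of the TNF- synovium, 45.2% [35.9 to 54.8] of its St18 UMIs. T cells and B or plasma cells were at 0.32 and 0.39 CPM in the TNF- lung and at 1.58 and 1.63 CPM in the TNF+ lung. Thinned to 2000 UMIs, 0.27% [0.073 to 0.68] of T cells and 0.066% [0.0017 to 0.37] of B or plasma cells of the TNF+ lung had an St18 UMI, with median depths of 9108 and 7870 UMIs. Macrophages or monocytes there had 3.95% [3.34 to 4.63], at a median of 9047 UMIs, and 6.57% unthinned. The share in nonclassical monocyte-like cells of subcluster 0, 0.316% [0.137 to 0.623], had an interval that overlaps that of T cells. Whether it is background was not tested. In the TNF- lung the macrophage or monocyte share was 2.19% [1.17 to 3.71] and 3.66% unthinned, against 0.10% in T cells. In the TNF+ synovium it was 14.0% [11.9 to 16.3] and 38.0% unthinned, against 0 of 116 T cells, which allows up to 2.59%. In the TNF- synovium it was 0.93% [0.11 to 3.34] and 2.25% unthinned, with 0 of 127 T cells, which allows up to 2.36%. The thinning left out 34 TNF- and 767 TNF+ shallower cells of this class in the lung, and 8 and 82 in the synovium.

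Lymphocytes of the TNF+ lung also carried C1qa, a transcript they do not make, at 0.57 UMIs per T cell against 0.021 in the TNF- lung. For every 1000 C1qa UMIs, these T cells had 26.0 St18 UMIs [16.5 to 39.0], B or plasma cells 38.3 [25.4 to 55.3] and macrophages or monocytes 69.8 [66.9 to 72.8]. The same quantity was 225 in TNF+ synovial macrophages or monocytes, 6.03 in those without the transgene and 40.9 in TNF- lung macrophages or monocytes.

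Single cells account for several of the low values. Of the 52 UMIs in 3082 fibroblast-like cells of the TNF- synovium, 1.11 CPM [0.83 to 1.46], 30 lay in 1 cell. Of the 45 UMIs in unnamed clusters of the TNF+ lung, 41 lay in 1 cell. In the TNF- lung, plasmacytoid dendritic-like cells had 7 UMIs, all in 1 of 13 cells. Schwann-like cells of the synovium, the glia of peripheral nerves, were at 7.0 CPM [1.44 to 20.5] without and 6.07 CPM [2.23 to 13.2] with the transgene. Fibroblast-like cells of the TNF+ synovium were at 0.97 CPM [0.31 to 2.25] and endothelium-like cells at 1.80 CPM [0.59 to 4.21].

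The other MYT genes were barely detected. Over all lung cells Myt1 had 1 UMI without and 9 with the transgene, and Myt1l 6 and 5. Over all synovial cells Myt1 had 3 and 0 UMIs and Myt1l 9 and 3. Within 500000 bases of St18, 5 other genes were counted. None with a ratio was at least 2-fold higher in TNF+ macrophages or monocytes. Of genes with at least 20 UMIs, 4.97% were in the lung and 9.21% in the synovium. Alkal1 had too few UMIs for a ratio in either tissue. Gm26901 had none in the lung, where 0 TNF- and 13 TNF+ UMIs give only a bound of at least -0.48 on the log2 scale. In macrophages or monocytes Rb1cc1, an autophagy initiation factor 210583 bases away, had log2 ratios of 0.11 [-0.0038 to 0.23] in the lung and 0.0048 [-0.20 to 0.21] in the synovium. Pcmtd1, 227980 bases away, was lower, by -0.30 [-0.43 to -0.17] and -0.79 [-1.09 to -0.49]. The antisense transcript 4732440D04Rik, which lies within Rb1cc1 on the other strand, 271938 bases from St18, was at -0.15 [-0.64 to 0.37] and 0.08 [-0.67 to 0.92]. Alkal1 had 0 to 4 UMIs and the long noncoding Gm26901 0 to 13 in these cells. Gm42492, which starts 297 bases past the end of St18 on the other strand, was not among the counted genes.

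The genes most like St18 across cell groups included those of the C1q chains. Over 63 groups of at least 50 cells, each a subtype or lineage in 1 library, the 10 highest Pearson correlations of log2(CPM + 1) among 16183 genes were those of Gpr162 (0.80), Ms4a14 (0.78), C1qc (0.76), Ms4a7 (0.75), H2-M2 (0.74), C1qa (0.74), Folr2 (0.73), Fxyd2 (0.72), C1qb (0.72) and Zmynd15 (0.71). The groups share libraries and differ in depth, so these values are descriptions without a p-value. C1qa, C1qb, C1qc, Ms4a7 and Folr2 were also among the markers by which C1q macrophage-like groups were named. The limit of 50 cells left out subcluster 8 of the TNF+ synovium, 48 cells with St18 at 518 CPM and C1qa at 63.8 CPM. C1qa, C1qb and C1qc encode C1q, Ms4a7 and Ms4a14 are membrane-spanning 4A genes, Gpr162 is an orphan receptor and Folr2 the folate receptor of resident macrophages. With a pseudocount of 10 CPM, 6 of the 10 were again among the highest.

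None of them tracked St18 through every group. TNF- synovial C1q macrophage-like cells had C1qa at 2910 CPM and St18 at 13.3 CPM, while in the TNF+ synovium C1qa was lower, 2238 CPM, and St18 was at 125 CPM. Trem2 macrophage-like cells of the TNF+ synovium had St18 at 111 CPM with C1qa at 366 CPM and Gpr162 at 3.88 CPM. The level of Gpr162 was 65.9 CPM with and 6.23 CPM without the transgene in lung C1q macrophage-like cells, the groups that had St18 at 570 and 197 CPM.

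**Figure D3:**
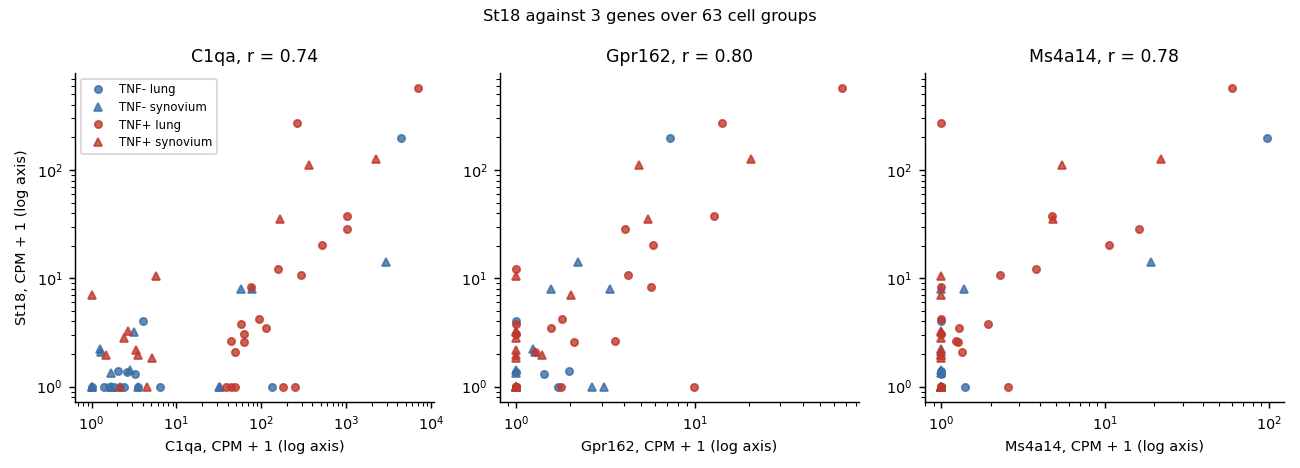
St18 against C1qa, Gpr162 and Ms4a14 (CPM + 1, log axes) over 63 cell groups, with colour for genotype and shape for tissue. Groups with high C1qa span St18 from 13.3 CPM in TNF- synovial to 570 CPM in TNF+ lung C1q macrophage-like cells, and the TNF+ lung point at 269 CPM is an unnamed cluster of 92 cells in which 1 cell held 41 UMIs.

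Genes that went with St18 from cell to cell were sought within the TNF+ macrophages or monocytes. Cells thinned to 2000 UMIs were split by whether they had an St18 UMI, and each gene's UMIs were set against those expected from the other cells of the same subclusters. In the TNF+ synovium 143 cells with an St18 UMI were set against 672 without, of which 101 and 539 came from subcluster 0. In the TNF+ lung it was 144 against 3261, with 122 and 100 from subcluster 7. The comparison took in 501 genes with at least 50 UMIs in the St18 cells of both libraries. On the log2 scale 274 (54.7%) were above 0 in the synovium, 190 (37.9%) in the lung and 118 (23.6%) in both. The limit of 50 UMIs was set on the St18 cells, so it favours genes that are high in them. Errors are counting standard errors, and cells of 1 library are not replicates.

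The 12 genes with the highest smaller ratio of the 2 libraries had log2 ratios of 0.41 to 1.10 in the synovium and 0.41 to 0.82 in the lung. Mtss1, which bends membranes and binds actin, was at 1.05 ± 0.25 in the synovium and 0.75 ± 0.23 in the lung. The formin Fmnl2 was at 0.46 ± 0.15 and 0.68 ± 0.29, and Myo5a, a cargo-carrying myosin, at 0.45 ± 0.16 and 0.60 ± 0.20. The sialyltransferase gene St3gal1 was at 0.68 ± 0.16 and 0.64 ± 0.30. Neat1, which is noncoding, Abr, Pitpnc1, Lpin2, Rnf149, Specc1, Tns3 and Myo1e completed the 12. The 5 lowest were the antioxidant enzyme gene Prdx5, Hmgb1, a chromatin protein, Taldo1 of the pentose phosphate pathway, and the actin-binding Capza2 and Tagln2, with ratios of -0.67 to -0.42 in the synovium and -0.81 to -0.45 in the lung.

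These lists were not stable. With a second random draw of the thinning, 4 of the 12 were again among the highest, with the limit at 8000 genes 2, without regard to subcluster 6 and with thinning to 5000 UMIs 1. In these settings 12, 12, 9 and 11 of the 12 were above 0 in both libraries. The settings share cells with the first choice of the 12, so nothing is read from these counts. Capza2 in the synovium was at 0.17 with the second draw, against -0.44. St3gal1, Neat1 and Rnf149 were below 0 in the lung when subclusters were not taken into account.

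The higher genes were also long. Their median length was 172546 bases, against 14155 for the 501 genes and 10770 for the 5 lower genes, and St18 itself spans 373710. Across the 501 genes the log2 ratio correlated with log10 gene length at r = 0.22 in the synovium and r = 0.59 in the lung, where genes are not independent replicates. The lung value was the highest of those obtained: under the alternatives of thinning, draw, filter and subcluster r ranged from 0.11 to 0.49 in the lung and from 0.13 to 0.38 in the synovium. With thinning to 5000 UMIs, where r in the lung was lowest, the median length of the 12 highest genes was 53454 bases against 30716 for all genes tested. Malat1, a nuclear-retained RNA, was higher in St18 cells, by 0.32 ± 0.023 and 0.33 ± 0.023. The median mitochondrial share was 1.95% in cells with and 1.80% in cells without St18 in the synovium, and 4.68% against 2.25% in the lung. These shares are not adjusted for subcluster, unlike the ratios: within subcluster 7 of the lung they were 4.83% and 4.23%, and within subcluster 0 of the synovium 1.75% and 1.80%. The part of nuclear and intronic RNA in these ratios was not tested.

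**Figure D4:**
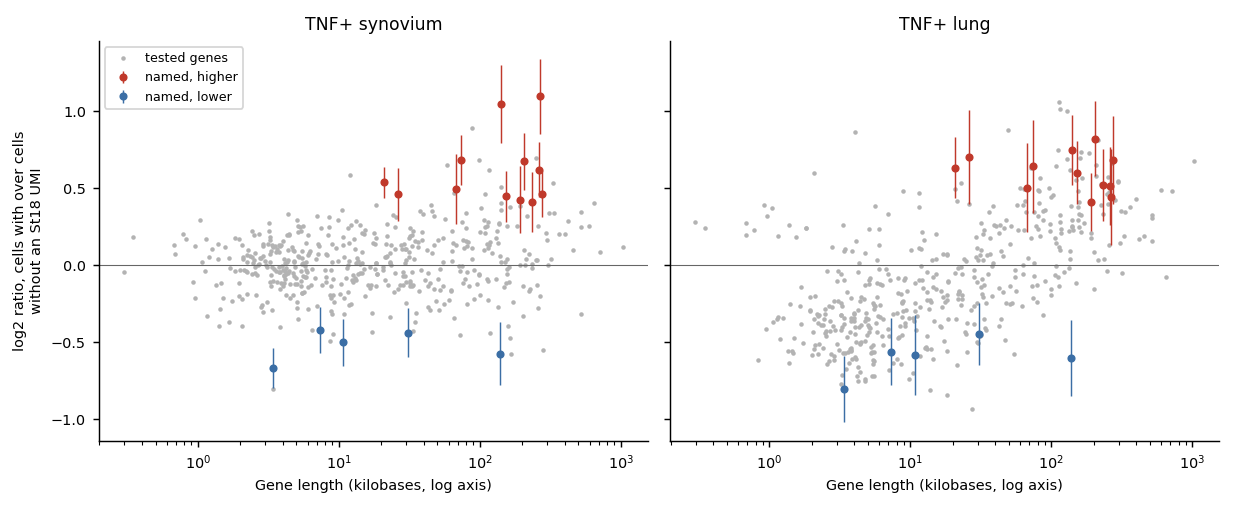
Log2 ratio of each of 501 genes in cells with an St18 UMI over that expected from cells without, in TNF+ synovium and TNF+ lung, against gene length in kilobases (log axis). Red and blue points are the 12 higher and 5 lower named genes, bars are counting standard errors, and the median length of the red points is 172546 bases.

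Few listed regulators had 50 UMIs in the St18 cells of both libraries. Of the 27 macrophage transcription factors 7 did, with a median log2 ratio of 0.14 in the synovium and 0.18 in the lung, against 0.020 and -0.14 over all 501 genes. Of the 14 Trem2 and lipid genes 7 did, with medians of 0.012 and 0.11, and of the 19 TNF and NF-kB genes 6, with medians of -0.12 and 0.17. None of these members was 2-fold different in either library, but only 0.399% of the 501 genes were at least 2-fold higher in each and none was 2-fold lower, so nothing is read from this count. No osteoclast, interferon, cell cycle or MYT partner gene reached 50 UMIs in both.

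Lists of genes around St18 were then compared between genotypes over all macrophages or monocytes, by the number at least 2-fold higher or lower. The background shares are those given above, and the median of all genes was -0.20 in the synovium and -0.11 in the lung. As members were summed over a class whose makeup differed between genotypes, level per cell and makeup cannot be told apart.

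The list of 8 MYT genes and partners holds Myt1 and Myt1l, which had too few UMIs, and 6 partners, all of which were measured. None of the 6 differed 2-fold in either tissue, with medians of -0.20 in the synovium and -0.0040 in the lung. Sin3a, a scaffold for histone deacetylases, was at -0.90 in the synovium [-1.20 to -0.59] and -0.06 in the lung, and Sin3b at 0.75 [0.56 to 0.94] and 0.21. Rcor1, a scaffold of the CoREST complex, was at -0.43 in the lung. Of the 27 macrophage transcription factors 4 were higher and 10 lower in the synovium, with a median of -0.34, and 3 were higher and 6 lower in the lung, with a median of -0.36. Bhlhe41, a circadian repressor also known from alveolar macrophages, was at 5.16 [2.66 to 10.47] in the synovium, from 1 TNF- UMI to 189, and at -1.39 in the lung. Tfec, of the MiT family with Mitf, was at 1.96 and -1.62. Nr4a1, an orphan nuclear receptor, was at -2.93 in the synovium. Spic, known from iron-recycling macrophages, was at 1.35 and Egr2 at -2.12 in the lung.

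In the synovium the osteoclast and the Trem2 and lipid lists held more higher than lower members. Of 15 measured osteoclast genes 6 were higher and none lower, with a median of 0.94. Ctsk stood at 3.13 CPM without and 375 CPM with the transgene (6.90 [5.98 to 8.03] on the log2 scale), Atp6v0d2, a proton pump subunit, was at 4.63 and Acp5 at 2.89. Of 14 Trem2 and lipid genes 10 were higher and 1 lower, with a median of 1.63, and Spp1 (osteopontin) was at 5.85, the elastase Mmp12 at 4.97 and Gpnmb at 4.83. In the lung 2 osteoclast genes were higher and 3 lower, with a median of -0.36, and Mmp9 was at 2.50 and Itgb3 at 2.24. There 1 Trem2 and lipid gene, Gpnmb, was higher at 1.61 and 4 were lower, led by Abcg1, a cholesterol exporter, at -2.23, with a median of -0.45.

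Most resident macrophage and interferon genes were lower in both tissues. All 12 measured resident genes were at least 2-fold lower in the synovium, with a median of -2.26, led by Lyve1 at -6.45 [-7.18 to -5.80] and Retnla at -5.09. In the lung 10 of 13 were lower, with a median of -1.93, led by Fcna at -5.17 [-6.10 to -4.34] and Cd163 at -4.06. Of the interferon genes 7 of 9 in the synovium and all 10 in the lung were lower, with medians of -2.22 and -2.07. Oasl2 was at -3.89 and Usp18 at -2.84 in the synovium, and Ifit2 at -2.61 and Rsad2 at -2.60 in the lung.

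Of the TNF and NF-kB genes, 8 of 19 were at least 2-fold higher and 1 lower in the lung, with a median of 0.67. Sod2, the mitochondrial superoxide dismutase, was at 1.87 there and Tnfaip3, the NF-kB inhibitor A20, at 1.81, while Ccl4 was at -2.21. In the synovium 2 were higher and 4 lower, with a median of -0.10, and Sod2 was at 2.13, Ccl3 at -2.69 and Ccl4 at -3.13. Of the cell cycle genes 6 of 9 were higher in the synovium, with a median of 1.61. Ube2c, a ubiquitin-conjugating enzyme of mitosis, was at 2.46 [0.54 to 5.53] there, from 2 TNF- and 58 TNF+ UMIs. Birc5, an inhibitor of apoptosis of dividing cells, had 0 TNF- and 82 TNF+ UMIs, at least 2.37 higher on the log2 scale. In the lung 1 of 10, Birc5 at -1.01, was lower and Mcm5 was at 0.78, with a median of -0.085. The differences between the tissues were not tested.

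**Figure D5:**
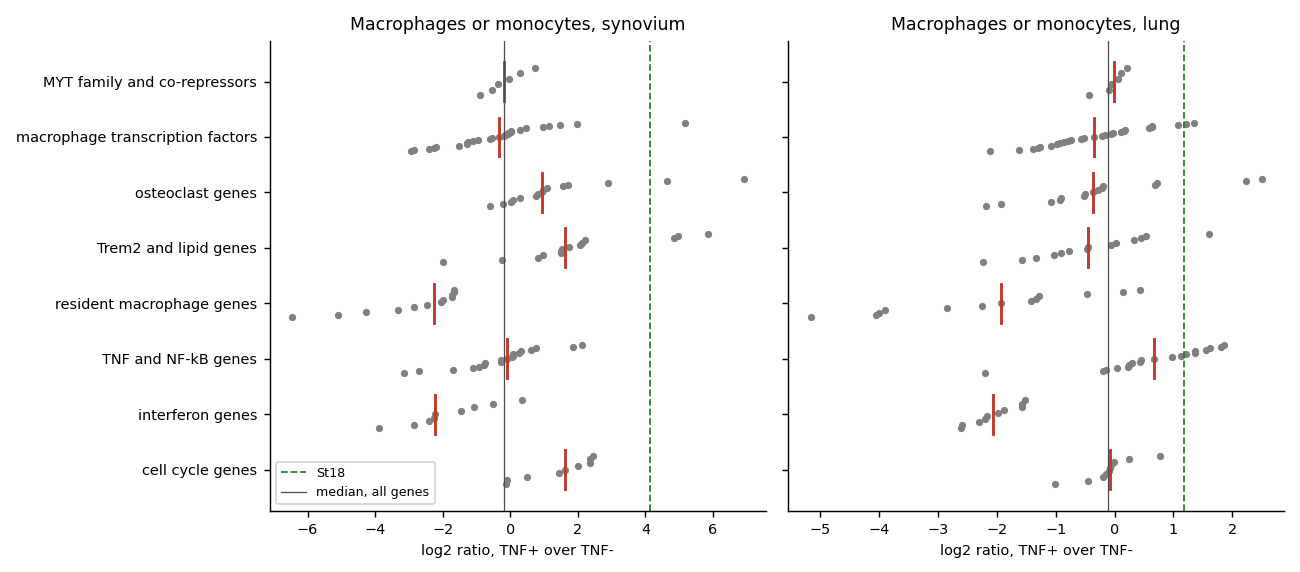
Log2 ratio (TNF+ over TNF-) of each measured member of 8 gene lists in macrophages or monocytes of synovium and lung. Grey points are genes, red ticks list medians, the grey line the median of all genes (-0.20 and -0.11) and the green dashed line St18 (4.15 and 1.19).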

How the data were processed

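Counts of UMIs per gene and cell were deposited by the authors without normalization, as made by Cell Ranger 7.0.1 from reads aligned to mm10, with intronic reads counted by default. The matrices hold barcodes called as cells, and no cell types are given. Gene positions came from GENCODE vM21, in which 32158 of 32285 genes were found by identifier.

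St18 and the gene lists were chosen with earlier results of these data known. Cells with 200 to 5000 genes and at most 20% mitochondrial UMIs were kept, 6998 TNF- and 9174 TNF+ cells of the lung and 6200 and 3152 of the synovium. Doublets were not removed, except in an alternative that left out the highest Scrublet scores (479 and 825 cells of the lung, 342 and 107 of the synovium). Both libraries of a tissue were clustered together with scanpy 1.11.5 and leidenalg 0.10.2, on 2000 variable genes without St18 and 30 components, at resolution 0.8, and myeloid cells again at 0.6. Components came from an eigendecomposition, which replaced a randomized solver because clusters then changed with the number of processor threads. A second Leiden seed was run as an alternative chosen after the data were seen. A lineage name needed 5 markers and a subtype name 3, each at least 2-fold over the other clusters and in 10% of cells. This naming rule was set after the data were seen, and rebuilt names may differ from the study's.

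Summed counts were compared as CPM with exact 95% intervals from scipy 1.17.1. With 1 library per group no test was possible and no p-value is given. A count of 0 allows 3 counts. Genes with at least 20 UMIs over both libraries entered the gene lists. In counts simulated with a log2 difference of 1 in the lung, over 21238 genes, the median recovered was 0.98.

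Besides St18, genes were named by rule: Myt1, Myt1l, genes within 500000 bases, the 12 highest and 5 lowest companion genes, the 10 most alike across cell groups, and 2 to 4 members of each list with the largest ratios. Leading genes and markers of clusters are given only to describe them. Gpr162 and the other alike genes needed 10 CPM in 1 group. Some results are not reported here.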

Additional observations from a re-analysis of the deposited data

Results flagged for a closer look

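Barcodes above the study's limit of 5000 genes, which the comparisons left out, held St18 in TNF+ tissue above the level of the same barcodes in TNF- tissue. In the TNF+ lung 1909 such barcodes had 5728 UMIs in 400 cells, 80.4 CPM [78.4 to 82.5], against 105 UMIs in 16 cells, 2.52 CPM, without the transgene. In the TNF+ synovium 346 barcodes had 587 UMIs in 83 cells, 41.1 CPM [37.8 to 44.5], against 25 UMIs in 10 cells, 1.80 CPM, in the TNF- synovium. The St18 cells above the limit in the TNF+ lung had macrophage or monocyte markers at 44749 CPM, B cell markers at 2265 CPM and T cell markers at 349 CPM, with a median of 33873 UMIs. Those in the TNF+ synovium had macrophage or monocyte markers at 10996 CPM and fibroblast markers at 1848 CPM, against 32543 and 914 CPM in St18 cells at or below the limit. The part of doublets was not tested in these barcodes.

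In macrophages or monocytes 4 of 119 listed genes had whole intervals past 2-fold higher in the synovium and past 2-fold lower in the lung. Of all tested genes, 9.21% were at least 2-fold higher in the synovium and 14.1% at least 2-fold lower in the lung. The share of all genes that met both conditions is not given, so nothing is read from the number. Atp6v0d2 was at -1.93 in the lung and 4.63 in the synovium, Bhlhe41 at -1.39 and 5.16, Cd9 at -1.33 and 1.74 and Tfec at -1.62 and 1.96. Values of Ctsd (-1.02 and 1.52), Ocstamp (-2.18 and 1.09) and Birc5 (-1.01 and at least 2.37) were also past 2-fold in opposite directions, with an interval that reaches within 2-fold in at least 1 tissue or only a bound. The difference between the tissues was not tested, as each rests on 1 library per group. Alveolar macrophage-like cells of subcluster 9 made up 16.4% of the TNF- class and 1.63% of the TNF+ class in the lung, and their part in these values was not tested.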

How the results depend on the processing

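No paired analysis was possible because each group holds 1 library. St18 ratios of whole tissues, macrophages or monocytes and C1q macrophage-like cells kept their direction in every alternative that gave a ratio. St18 was chosen for this direction in the same data, so nothing is read from it. The log2 ratio in synovial macrophages or monocytes (4.15) was 3.56 to 4.41 in all alternatives but that with libraries clustered by themselves, where it was 5.62. In lung macrophages or monocytes (1.19) it was 1.75 with no cell filter, 1.74 with 8000 genes, 0.95 with at least 500 genes and 10% mitochondrial UMIs, 1.65 without the highest Scrublet scores, 2.92 with libraries clustered by themselves, 2.62 at resolution 1.5 and 1.51 with cells weighted equally. In the whole lung (2.96) it was 4.08, 4.02, 2.69 and 3.39 under those filters in the same order, 3.69 with equal weights and 3.27 with median-of-ratios scaling, and in the whole synovium 4.53 with equal weights. The lung C1q macrophage-like ratio could not be given with no cell filter or with 8000 genes, where 8 and 10 TNF- cells took that name. Leaving out the 1% of cells with the most St18 gave no usable value, because St18 lay in only 34 of 6998 TNF- lung and 52 of 6200 TNF- synovial cells, so that every TNF- cell with St18 was removed.

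With 8000 genes, a choice made after seeing the data, St18 was at 125 CPM in osteoclast-like and 118 CPM in Trem2 macrophage-like cells of the TNF+ synovium and at 381, 1.74 and 1.5 CPM in C1q macrophage-like, nonclassical monocyte-like and alveolar macrophage-like cells of the TNF+ lung. With the stricter filter, likewise, C1q macrophage-like and alveolar macrophage-like cells of the TNF+ lung were at 502 and 2.43 CPM, and no Trem2 macrophage-like group was named in the TNF+ synovium. A second Leiden seed, also chosen after seeing the data, left all ratios and shares of macrophages or monocytes within their intervals. The macrophage or monocyte share of St18 UMIs was 70.4% in the TNF- lung and 72.9% in the TNF+ synovium with 8000 genes. It was 92.3% in the TNF+ lung and 5.22% and 71.7% in the TNF- and TNF+ synovium with libraries clustered by themselves, and 92.4% and 89.8% in the TNF+ lung and synovium at resolution 1.5. The share of the class with an St18 UMI was 0.98% (TNF-) and 3.05% (TNF+) in the lung and 0% and 8.61% in the synovium with 1000 UMIs, and 5.31% and 24.4% with 5000 UMIs in the TNF+ lung and synovium. In the TNF+ lung it was 15.7% with libraries clustered by themselves, 14.6% at resolution 1.5 and 6.71% with 8000 genes. Of the 10 genes most alike to St18, 6 were kept with a pseudocount of 10 CPM. Companion ratios changed sign for St3gal1 (-0.90), Neat1 (-0.18), Rnf149 (-0.62) and Tagln2 (0.13) in the lung without regard to subtype, for Tns3 (-0.14) in the lung with 5000 UMIs, for Tagln2 (0.086) in the lung with 8000 genes and for Capza2 (0.17) in the synovium with a second draw. The causes were not tested. All values rest on 1 library per group, so differences between mice are not covered.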
